A study of Homo sapiens
Mus musculus and Mus musculus and Homo sapiens with 16 samples.

Results

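Immediate early transcription factors were followed in REC-1, a human mantle cell lymphoma cell line, with and without contact to mouse stromal cells. The genes were EGR1, EGR2, EGR3, FOS, FOSB, JUN, JUNB, JUND, IER2 and MYC, taken by symbol from the human count table, where each symbol matched 1 row. They are 10 of the 58051 human genes of the table, and 7 of them passed the low-count filter that left 12861 genes for testing.

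RNA sequencing libraries of 4 groups with 4 replicates each were used. Sep denotes REC-1 cells grown alone, Susp the REC-1 cells left in suspension in the coculture, Adh the REC-1 cells adhered to MS-5 stromal cells, and MS-5 the mouse bone marrow stromal line grown alone. No drug or gene change is named for any of these groups, and the labels give 1 serum-containing medium for cultures alone and together, from which RNA was taken after 24 h. REC-1 is 1 cell line, so its replicates are cultures of the same cells, which the study describes as independent experiments. The Adh lysates held RNA of both species, and their human and mouse reads had been separated by sequence, so no sorting took place. The human totals were 9325412 to 12597891 counts per library in Sep, 15000927 to 21467832 in Susp and 7758979 to 13241751 in Adh. The B cell genes MS4A1, CD79A, CD79B, PAX5 and CD22 and the mantle cell lymphoma gene CCND1 were counted in all 12 REC-1 libraries, with at least 414 counts each, whereas CD5, another usual marker of this lymphoma, had 0 to 22 counts. The summed level of the 5 T cell markers was at most 8.73 CPM (counts per 1000000 scaled counts of the library) in any library, and that of the 4 myeloid markers at most 2.20 CPM.

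Immediate early genes are transcribed soon after a stimulus without need for new protein, because the factors that switch them on already sit in the cell. Serum response factor at CArG boxes, with ELK-type cofactors that ERK phosphorylates, and CREB at cyclic AMP response elements (CREs) are the best known of these. EGR proteins are zinc-finger factors, FOS and JUN proteins pair to form AP-1, IER2 is a nuclear protein of less settled function, and MYC pairs with MAX to drive growth genes. In B cells, engagement of the antigen receptor is a classical trigger of EGR, FOS and MYC transcription. The study asks whether stromal contact engages that receptor in mantle cell lymphoma lines. A library taken at 24 h shows the level that is sustained then, and not the first wave.

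The promoters of the members were read from GRCh38 at the canonical starts of GENCODE 44, from 250 bases before to 50 bases after the start. Within this window the CArG box, matched by its name pattern on both strands, was found only in the EGR genes. EGR1, EGR2 and EGR3 each held at least 1, and the other 7 members held none in this window. Of 20033 promoters of protein-coding genes, 1.2% held one in the same window. Sequence further from the start was not searched, so the other members may hold a CArG box there. The CRE (TGACGTCA) was present in 1 member, JUND, against 2.69% of all promoters. AP-1 sites (TGANTCA), EGR sites (GCGTGGGCG) and E-boxes (CACGTG) were in 0 of the 10 members, against 5.44%, 1.17% and 8.76% of all promoters. A loose NF-kB pattern, 3 G, 4 bases of any kind and 3 C, which can overlap other motifs, was in 3 members (EGR1, JUN and JUND) and in 21.03% of all promoters. The 250 bases before the start are shown for EGR1 and EGR2, which share the CArG box but differed widely in level, and for JUND, the most GC-rich member. They lie at chr5:138465229-138465478 (plus strand), chr10:62816367-62816616 (minus strand) and chr19:18281623-18281872 (minus strand), and the capitals mark the CArG boxes of EGR1 and EGR2 and the CRE of JUND.
EGR1: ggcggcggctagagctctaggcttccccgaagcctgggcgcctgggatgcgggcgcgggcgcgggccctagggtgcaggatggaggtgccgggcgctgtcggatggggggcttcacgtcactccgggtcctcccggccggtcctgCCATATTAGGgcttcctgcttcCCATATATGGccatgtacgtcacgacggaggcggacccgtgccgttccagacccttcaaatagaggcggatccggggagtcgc
EGR2: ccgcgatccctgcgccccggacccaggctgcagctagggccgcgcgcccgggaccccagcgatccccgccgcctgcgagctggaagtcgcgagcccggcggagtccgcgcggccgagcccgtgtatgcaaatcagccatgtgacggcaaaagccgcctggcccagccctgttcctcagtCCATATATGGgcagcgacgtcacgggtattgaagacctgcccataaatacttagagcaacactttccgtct
JUND: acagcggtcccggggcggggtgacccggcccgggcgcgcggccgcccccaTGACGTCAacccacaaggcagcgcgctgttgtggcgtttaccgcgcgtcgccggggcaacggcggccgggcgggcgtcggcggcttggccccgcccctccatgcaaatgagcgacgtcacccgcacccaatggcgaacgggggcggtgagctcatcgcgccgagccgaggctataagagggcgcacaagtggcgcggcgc
The boxes of EGR1 begin 105 and 83 bases before the start and that of EGR2 71 bases before it, the same distance as in EGR3. The JUND element begins 200 bases before the start. JUND's upstream sequence is 74.8% GC, against 68.4% for EGR1 and 66.0% for EGR2.

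Across the 12 libraries, none of the members was called in any comparison. A gene counted as called when its adjusted p was 0.05 or lower and its level differed by 1.5-fold or more, by edgeR's quasi-likelihood test over all 12861 genes. In Susp against Sep, 0 of 7 tested members were called, where 0.731% of all tested genes were. In Adh against Sep, 0 of 7 were called, against 2.40% of all genes, and in Adh against Susp 0 of 7, against 0.778%. Beside such background shares, a count of 0 of 7 does not set the members apart from other genes. An unadjusted p under 0.05 was reached by 0, 1 and 0 of the 7 in these 3 comparisons, against 16.7%, 20.2% and 18.0% of all genes, and DESeq2 called 0, 1 and 0. The 1 gene was EGR3 in Adh against Sep. The median log2 fold change of the 7 was 0.18 in Susp against Sep, 0.12 in Adh against Sep and -0.01 in Adh against Susp, while that of all genes was within 0.01 of 0 each time. All comparisons share libraries, so their values are not independent. CPM gives a gene's share of the human reads, in which fewer cells with a transcript and less transcript per cell cannot be told apart.

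**Figure D1:**
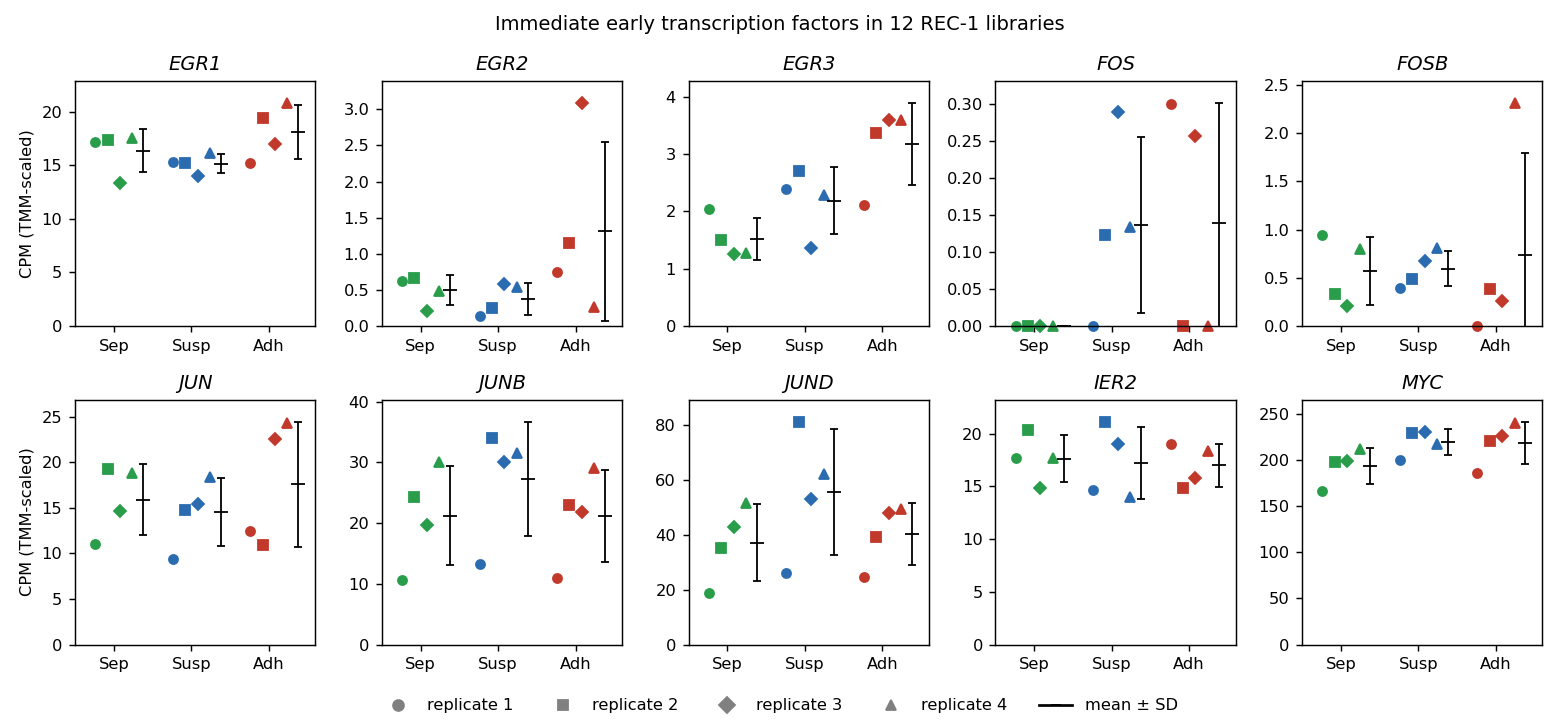
Level of each member in every REC-1 library, in CPM on a linear axis of its own, with symbols for the replicate numbers and the group mean ± SD (n = 4) in black. MYC stood between 166 and 241 CPM in all 12 libraries, FOS was at 0 in 7 of them, and the EGR3 values of Adh lay above those of Sep.

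Levels of different genes were compared per length of the canonical transcript, as RPKM (CPM divided by the transcript length in kilobases). The order in Sep was MYC, JUND, JUNB, IER2, EGR1, JUN, EGR3, EGR2, FOSB and FOS, and the first 7 places were the same in Susp and Adh. MYC was at 52.2 ± 5.24 RPKM in Sep, 59.1 ± 3.71 in Susp and 58.8 ± 6.23 in Adh (SD, n = 4), above JUND in every library of each group. In Sep its mean was higher than that of 89.0% of the tested genes. JUND (19.2 ± 7.25 RPKM in Sep), JUNB (11.6 ± 4.47) and IER2 (8.37 ± 1.06) followed, but the libraries of JUND and JUNB overlapped, as did those of JUNB and IER2. IER2 was above EGR1 (5.22 ± 0.636 RPKM) in every library, and EGR1 and JUN (4.89 ± 1.19) overlapped. EGR3 (0.337 ± 0.0816 RPKM), EGR2, FOSB and FOS stood at the bottom of the order. The EGR genes thus ran from the middle of the tested genes (EGR1, above 40.7% of them in Sep) through EGR3 (above 4.71%) to near their floor (EGR2, above 1.39%).

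EGR1 (ENSG00000120738, chromosome 5, 138465479 to 138469303) encodes the factor most used as a readout of ERK activity. It was at 17.2, 17.4, 13.4 and 17.5 CPM in Sep replicates 1 to 4, at 15.3, 15.2, 14.0 and 16.1 CPM in Susp, and at 15.3, 19.5, 17.0 and 20.8 CPM in Adh. The 3 groups overlapped, with Sep replicate 3 the lowest of all libraries and Adh replicate 4 the highest. The log2 fold change was -0.12 in Susp against Sep (95% interval -0.40 to 0.16), 0.14 in Adh against Sep (-0.14 to 0.42) and 0.26 in Adh against Susp (-0.03 to 0.54). These intervals leave out a 1.5-fold change, which is 0.585 on the log2 scale, in either direction. The edgeR adjusted p-values were 0.655, 0.607 and 0.320. With a correction of each library for GC content and length, the value in Adh against Susp was 0.41 (0.15 to 0.67, edgeR adjusted p = 0.0844), an interval that holds a 1.5-fold higher level.

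EGR3 (ENSG00000179388, chromosome 8, 22687659 to 22693480) encodes an EGR factor induced along with EGR1 in lymphocytes, and it had the largest difference among the 7 tested members. Its counts were 26, 18, 12 and 16 in Sep, 36, 44, 28 and 34 in Susp, and 28, 35, 28 and 28 in Adh. The human totals of the Adh libraries were below those of Susp and overlapped those of Sep. As CPM the EGR3 levels were 2.05, 1.51, 1.26 and 1.28 in Sep, 2.39, 2.71, 1.35 and 2.28 in Susp, and 2.11, 3.37, 3.60 and 3.59 in Adh. Every Adh library was above every Sep library, and such groups without overlap, in either direction, were found for 15.7% of all tested genes. Susp overlapped with both. The margin was narrow, since Adh replicate 1 at 2.11 CPM and Sep replicate 1 at 2.05 CPM nearly met. The log2 fold change in Adh against Sep was 1.03 (SE 0.31, 95% interval 0.37 to 1.69), a 2.04-fold higher level, with an unadjusted p of 0.00454 and an edgeR adjusted p of 0.0774 in 4 against 4 libraries. It thus did not pass over all 12 libraries. It did pass in 5 of 23 alternatives (edgeR or DESeq2 adjusted p from 0.0351 to 0.198 over all 23): with DESeq2 (0.0356), without Sep replicate 1 (0.0462), without Susp replicate 2 (0.0441), and with a correction for GC content and length alone (0.0351) or with the replicate number as a term (0.05). All genes were called more often there too, 4.10%, 3.74%, 3.97%, 3.85% and 3.60% of those tested. The direction was the same in all 23 alternatives, with a log2 fold change between 0.94 and 1.21. In Susp against Sep it was 0.50 (-0.15 to 1.15, edgeR adjusted p = 0.399) and in Adh against Susp 0.53 (-0.10 to 1.15, edgeR adjusted p = 0.352). A long noncoding RNA on the opposite strand overlaps the gene, and had 3 counts in the 12 libraries together.

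**Figure D2:**
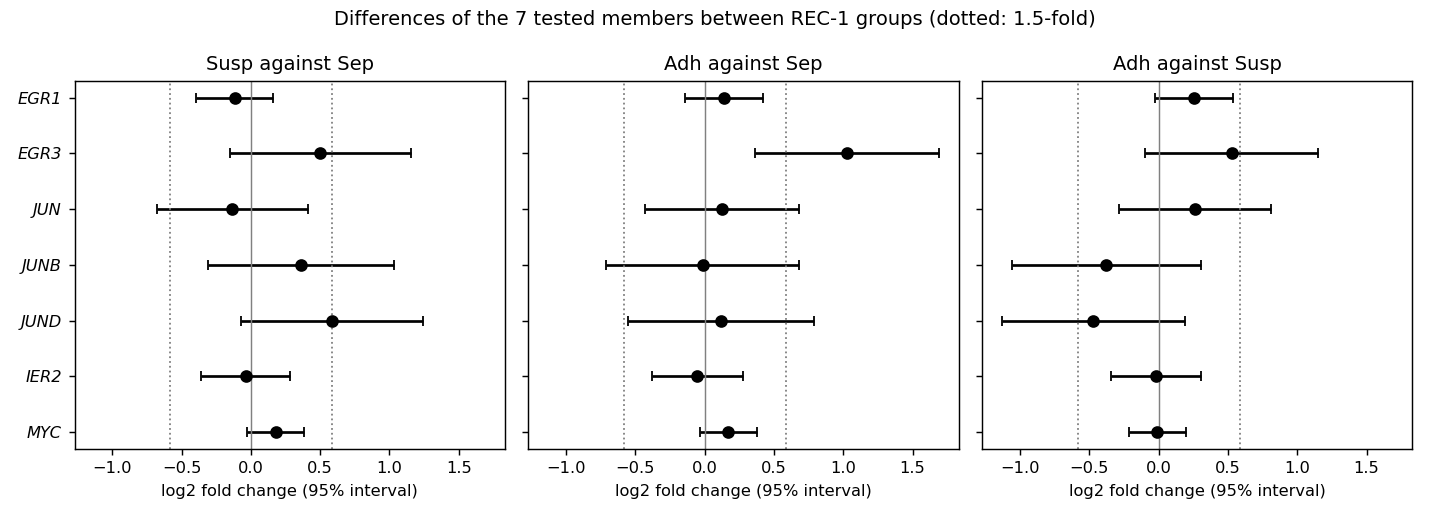
Log2 fold change of the 7 tested members in the 3 comparisons, points with 95% intervals of the edgeR fit, and dotted lines at a 1.5-fold change. EGR3 in Adh against Sep (0.37 to 1.69) has the 1 interval that leaves out 0, and MYC has the narrowest intervals.

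EGR2 (ENSG00000122877, chromosome 10, 62811996 to 62819167) encodes a factor that restrains as well as follows lymphocyte activation. It stayed under the filter, with 8, 8, 2 and 6 counts in Sep, 2, 4, 12 and 8 in Susp and 10, 12, 24 and 2 in Adh. Adh held both the highest library, replicate 3 at 3.08 CPM, and one of the lowest, replicate 4 at 0.257 CPM, so its spread (1.31 ± 1.24 CPM, SD, n = 4) covered the values of both other groups. With no filter, EGR2 had a log2 fold change of 1.33 in Adh against Sep (edgeR adjusted p = 0.324) and of 1.73 in Adh against Susp (edgeR adjusted p = 0.129). EGR1 and EGR2, both with a CArG box in the sequences above, were thus at 5.22 and 0.167 RPKM in Sep cells.

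FOS and FOSB, the members that bring the FOS side of AP-1, were close to undetected. FOS (ENSG00000170345, chromosome 14, 75278826 to 75282230) had 0 counts in all 4 Sep libraries, 0, 2, 6 and 2 in Susp and 4, 0, 2 and 0 in Adh. It was at 3 counts or fewer in 10 of 12 libraries. If each count were a separate fragment, a count of 0 would allow up to 3 counts, or 0.145 to 0.385 CPM depending on the library. The mates of a pair appear as separate counts here, so the limit is higher than this. No fold is given, since the groups were at or near that limit, and such limits cover counting error only. FOSB (ENSG00000125740, chromosome 19, 45467995 to 45475179) had 12, 4, 2 and 10 counts in Sep, 6, 8, 14 and 12 in Susp and 0, 4, 2 and 18 in Adh, with overlap of all groups. FOSB lies wholly within the span of ERCC1 on the other strand, which had 8024 counts in the 12 libraries. The kit does not mark strand, so reads from shared bases cannot be told apart.

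The JUN side of AP-1 was present in every library. The 3 JUN genes summed to 18.95 to 65.2 RPKM over the 12 libraries, while FOS, FOSB and their relatives FOSL1 and FOSL2 summed to 0.213 to 0.612 RPKM. The JUN genes made up 97.6% to 99.4% of this pool in every library, with 98.9% on average in Sep, 98.8% in Susp and 99.0% in Adh. BATF, a lymphoid AP-1 factor that pairs with JUN proteins in place of FOS, was at 26.8 ± 4.80 RPKM in Sep, 34.2 ± 6.48 in Susp and 36.5 ± 4.93 in Adh (SD, n = 4). JUND alone was 48.7% to 64.6% of the JUN sum.

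JUN (ENSG00000177606, chromosome 1, 58776845 to 58784048) encodes the classical partner of FOS and target of the JNK kinases. Its levels were 11.02, 19.2, 14.7 and 18.8 CPM in Sep, 9.43, 14.8, 15.5 and 18.4 CPM in Susp, and 12.5, 10.98, 22.6 and 24.4 CPM in Adh. All groups overlapped, and Adh split into a low pair (replicates 1 and 2) and a high pair (replicates 3 and 4). The log2 fold changes were -0.13 in Susp against Sep (95% interval -0.68 to 0.41), 0.13 in Adh against Sep (-0.43 to 0.68) and 0.26 in Adh against Susp (-0.29 to 0.81), with edgeR adjusted p-values of 0.801, 0.832 and 0.602. These intervals still hold a 1.5-fold lower level in Susp against Sep and a 1.5-fold higher level in Adh against either group.

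JUNB (ENSG00000171223, chromosome 19, 12791486 to 12793315) and JUND (ENSG00000130522, chromosome 19, 18279694 to 18281622) are single-exon genes, JUNB an inducible and JUND a mostly constitutive AP-1 subunit. JUNB was at 10.7, 24.4, 19.8 and 30.1 CPM in Sep, 13.3, 34.0, 30.1 and 31.6 CPM in Susp, and 10.9, 23.0, 21.8 and 29.1 CPM in Adh. JUND was at 18.7, 35.1, 42.9 and 51.7 CPM in Sep, 25.9, 81.3, 52.9 and 62.1 CPM in Susp, and 24.8, 39.2, 48.1 and 49.5 CPM in Adh. Replicate 1 was the lowest library of its group for both genes in 3 of 3 groups, and the range within each group was wider than any difference between group means. In Susp against Sep the log2 fold change of JUND was 0.58 (SE 0.31, 95% interval -0.07 to 1.24, edgeR adjusted p = 0.341) and that of JUNB 0.36 (-0.31 to 1.04, edgeR adjusted p = 0.559). In Adh against Susp they were -0.47 (-1.13 to 0.19, edgeR adjusted p = 0.431) for JUND and -0.38 (-1.06 to 0.30, edgeR adjusted p = 0.537) for JUNB. In Adh against Sep they were 0.11 (-0.56 to 0.79) and -0.02 (-0.71 to 0.68). JUND in Susp against Sep was called in 1 of 23 alternatives, without the low-count filter (log2 fold change 0.59, edgeR adjusted p = 0.000659), where 0.765% of all genes were. JUNB lies wholly within the span of HOOK2 on the other strand, which had 1029 counts in the 12 libraries against 3622 for JUNB.

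JUNB and JUND moved with other GC-rich genes over the libraries. Their transcripts are 64.9% (JUNB) and 69.9% GC (JUND), above 96.3% and 99.7% of the tested genes, whose median is 47.8%. The other 1276 genes among the 10% most GC-rich (61.6% GC or more) had a mean log2 CPM, relative to the 12-library mean, of -0.52, 0.13, 0.00 and 0.32 in Sep, -0.11, 0.47, 0.25 and 0.22 in Susp, and -0.52, -0.01, -0.27 and 0.04 in Adh. Replicate 1 was the lowest in each group here too, and Susp replicate 2, with the highest JUNB and JUND levels, was the highest of all 12. Other members did not all follow their GC content. IER2 (63.0% GC) was lowest in replicate 1 in 0 of 3 groups, and its Pearson's r of log2 CPM was 0.14 with JUNB and 0.10 with JUND. MYC (48.8% GC) was lowest there in 3 of 3 groups, with r of 0.83 and 0.84. Whether GC content underlies the JUNB and JUND levels was not tested. In the Adh libraries, the mouse reads of Junb (688, 1148, 1080 and 1316 counts) and Jund (158, 246, 240 and 218 counts) were lowest in replicate 1, which did not have the smallest mouse total. Those of Jun and Ier2 were lowest there too, while Egr1, Myc and the remaining mouse orthologs were lowest in another replicate. These are unscaled counts, and a GC trend of the mouse reads was not tested. With each library corrected for its trend on GC content and length, the log2 fold change of JUND in Susp against Sep was 0.16 (edgeR adjusted p = 0.510) in place of 0.58, and that in Adh against Susp turned from -0.47 to 0.17 (edgeR adjusted p = 0.515). That of JUNB in Adh against Susp turned from -0.38 to 0.07 (edgeR adjusted p = 0.889). For JUND in Adh against Sep the correction went the other way, to 0.33 (edgeR adjusted p = 0.0953) in place of 0.11. With the replicate number as a term too, this value was 0.34 (edgeR adjusted p = 0.0465), under 1.5-fold and so not called. Without Susp replicate 2 and with no correction, JUND was at 0.33 in Susp against Sep and at -0.22 in Adh against Susp. Without Sep replicate 1, JUND in Adh against Sep was at -0.11.

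**Figure D3:**
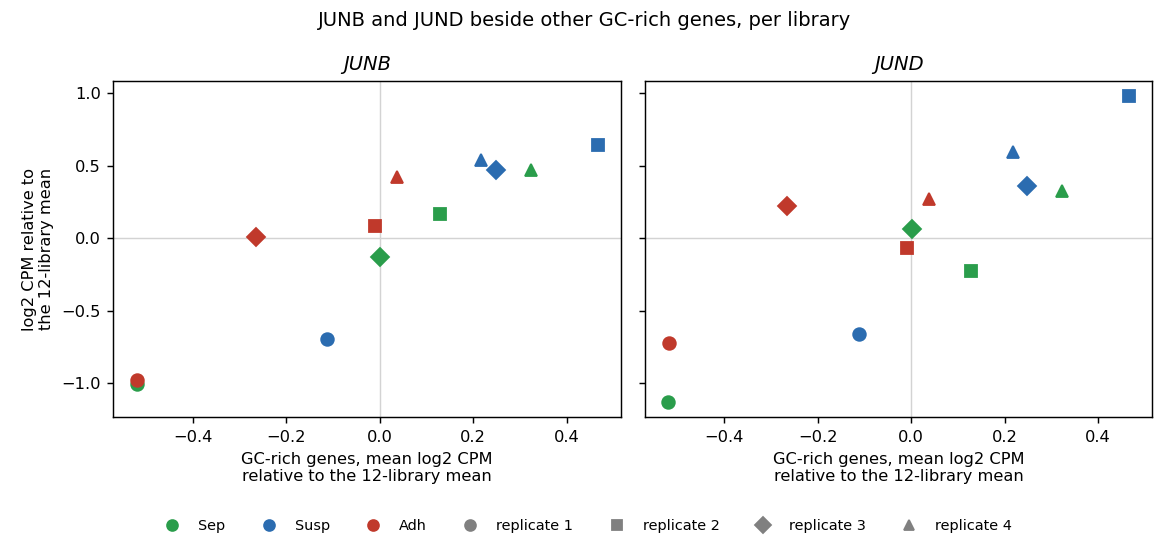
JUNB and JUND in each of the 12 REC-1 libraries against the mean of 1276 other GC-rich genes, both axes as log2 CPM relative to the mean of the 12 libraries, with colours for the group and symbols for the replicate number. The libraries of replicate 1 lie at the lower left of their group and Susp replicate 2 at the upper right.

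IER2 (ENSG00000160888, chromosome 19, 13150411 to 13154911) lay between 14.9 and 20.3 CPM in Sep, between 14.04 and 21.1 CPM in Susp, and between 14.8 and 19.02 CPM in Adh, with full overlap. The log2 fold changes were -0.04 (95% interval -0.36 to 0.28), -0.05 (-0.38 to 0.27) and -0.02 (-0.34 to 0.31) in Susp against Sep, Adh against Sep and Adh against Susp, so a 1.5-fold change lay outside all 3 intervals. Its transcript is also GC-rich, at 63.0%, and with the correction for GC content and length the values were -0.32 in Susp against Sep (-0.67 to 0.02, edgeR adjusted p = 0.306) and 0.39 in Adh against Susp (0.04 to 0.74, edgeR adjusted p = 0.231). Both of these intervals hold a 1.5-fold change.

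MYC (ENSG00000136997, chromosome 8, 127735434 to 127742951) was the most abundant member and the most precisely measured. It was at 166, 198, 199.6 and 212 CPM in Sep, 201, 229.7, 230.4 and 218 CPM in Susp, and 186, 220.5, 227 and 241 CPM in Adh. Sep replicate 1 was the lowest library, and replicate 1 was the lowest of its group in all 3 groups. The log2 fold changes were 0.18 in Susp against Sep (SE 0.10, 95% interval -0.03 to 0.39), 0.17 in Adh against Sep (SE 0.10, -0.04 to 0.38) and -0.01 in Adh against Susp (SE 0.10, -0.21 to 0.20). The edgeR adjusted p-values were 0.347, 0.347 and 0.970. A change of 1.5-fold lay outside all 3 intervals. With the correction for GC content and length, MYC was at 0.22 in Susp against Sep (0.03 to 0.42, edgeR adjusted p = 0.188) and 0.21 in Adh against Sep (0.02 to 0.41, edgeR adjusted p = 0.134). With the replicate number as a term instead, it was at 0.18 (0.03 to 0.34, edgeR adjusted p = 0.153) and 0.17 (0.01 to 0.33, edgeR adjusted p = 0.175). These intervals leave out both 0 and a 1.5-fold change, and MYC was not called. MYC, JUNB and JUND varied together over the libraries, with Pearson's r of log2 CPM of 0.93 for JUNB and JUND, 0.84 for JUND and MYC and 0.83 for JUNB and MYC over 12 libraries. EGR1 did not share that pattern (r = 0.15 with JUNB and -0.05 with JUND). These r are descriptions, as the 12 libraries share replicate numbers and 3 groups.

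The genes most like MYC over the 12 libraries, among 8487 genes of at least 10 CPM, were TKT (r = 0.96), DNAJB12 (r = 0.96) and ARHGDIA (r = 0.95). Those most like EGR1 were GCH1 (r = 0.87), CCDC34 (r = 0.81) and HACD3 (r = 0.75), and those most like JUN were NGRN (r = 0.82), PPARD (r = 0.81) and PEX10 (r = 0.79). For FOS, with 0 counts in 7 libraries, no such measure was taken. The transcripts of the genes named for EGR1 were 42.1% to 43.0% GC, below the median of 47.8% of the tested genes. Those named for MYC (53.7% to 64.6%) and JUN (51.3% to 59.5%) were above it. Whether the GC trend of the libraries underlies these r was not tested.

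Mouse RNA was abundant in the Adh libraries, which bears on the human counts there. The mouse orthologs had more counts than the human genes for EGR1 (6.99 mouse counts per human count over the 4 libraries), JUNB (5.42), FOSB (5.75), EGR2 (4.33), JUN (3.98), FOS (10.3) and IER2 (2.79), and fewer for MYC (0.901), EGR3 (0.765) and JUND (0.576). Stromal marker genes show how many counts of mostly mouse transcripts were in the human table, and misassignment was not measured for the members themselves. COL1A1 had 0 to 4 human counts against 38952 to 45763 mouse counts per Adh library, and CXCL12 had 0 human counts against 11264 to 17650. Of the 12 stromal markers, the summed human level was 6.67 to 7.22 CPM in Adh and 5.83 to 8.20 CPM in Sep, which held no mouse cells. Among the stromal markers with at least 1000 mouse counts in Adh, FN1 had the highest human count relative to the mouse count, 0.107%. COL1A2, DCN, LUM, THY1 and CXCL12 were at 0 in the human counts of all 4 Adh libraries, of which DCN, LUM and THY1 were at 0 in the mouse counts too. Mouse Egr3 had 33, 16, 20 and 22 counts beside 28, 35, 28 and 28 of human EGR3. For EGR2, human counts were 10, 12, 24 and 2 beside 62, 58, 38 and 50 mouse counts.

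Partners, regulators and downstream genes were described from 6 lists, 97 genes in all, of which 83 were tested. In Susp against Sep 1 of the 83 rose and 2 fell, where 0.731% of all genes were called. In Adh against Sep 1 rose and 1 fell, against 2.40% of all genes. In Adh against Susp edgeR called 0, against 0.778%, and DESeq2 called 1, MXD3. An unadjusted p under 0.05 was reached by 32, 25 and 14 of the 83 in these comparisons, against 16.7%, 20.2% and 18.0% of all genes.

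Of the 14 regulators of the members, all tested, 1 was called. ELK3, a ternary complex factor that acts with serum response factor at CArG boxes, was at 15.2, 11.1, 11.5 and 9.41 CPM in Sep, at 5.11, 3.81, 3.19 and 3.63 CPM in Susp, and at 5.04, 3.08, 3.47 and 4.49 CPM in Adh. Both coculture groups lay wholly below Sep. Groups without overlap, in either direction, were found for 11.3% of all tested genes in Susp against Sep and 15.7% in Adh against Sep. ELK3 fell by 1.59 on the log2 scale in Susp (SE 0.21, edgeR adjusted p = 0.000772) and fell by 1.54 in Adh (SE 0.22, edgeR adjusted p = 0.000621), in 4 of 4 libraries of each group, and both calls held in 23 of 23 alternatives. The change in Adh against Susp was 0.05 (95% interval -0.43 to 0.52). NAB2, a corepressor that EGR proteins induce and that binds them, had a log2 fold change of 0.43 in Susp (edgeR adjusted p = 0.134) and of 0.32 in Adh (edgeR adjusted p = 0.183). The median of the list was -0.06 in Susp against Sep and 0.01 in Adh against Sep.

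Of 22 immediate early effectors, 17 were tested. In Susp against Sep 1 rose and 1 fell (0.731% of all genes called), in Adh against Sep 1 rose (2.40%), and in Adh against Susp edgeR and DESeq2 called 0 (0.778%), with an unadjusted p under 0.05 in 3. TRIB1, a pseudokinase that binds the MAPK kinase MEK1 and the ubiquitin ligase COP1, was at 8.98, 9.79, 11.1 and 8.53 CPM in Sep, 11.95, 14.8, 12.95 and 14.9 CPM in Susp, and 15.3, 22.4, 18.8 and 15.01 CPM in Adh. It rose by 0.90 on the log2 scale in Adh against Sep (SE 0.16, edgeR adjusted p = 0.00369), a call that held in 23 of 23 alternatives, while the 0.51 of Susp against Sep did not pass (edgeR adjusted p = 0.131). DUSP5, a nuclear ERK phosphatase, rose by 0.72 in Susp (SE 0.15, edgeR adjusted p = 0.0240), from 14.6 ± 2.58 to 24.1 ± 4.77 CPM (SD, n = 4). This call was kept in 15 of 23 alternatives. It fell under 1.5-fold without Susp replicate 2, at 31.2 CPM the highest library (log2 fold change 0.56), and with the GC and length correction (0.54), and its adjusted p was between 0.053 and 0.113 (edgeR) without Sep replicate 2, 3 or 4 or Susp replicate 4 and 0.0826 in a fit of these 2 groups alone. CD69, an activation antigen of lymphocytes, fell by 0.68 in Susp (SE 0.13, edgeR adjusted p = 0.0137), from 33.0 ± 4.68 to 20.6 ± 1.27 CPM, with all 4 Susp libraries below all 4 Sep libraries. Groups without overlap, in either direction, were found for 11.3% of all tested genes in Susp against Sep. The CD69 call was lost without Sep replicate 1 (edgeR adjusted p = 0.0557), Susp replicate 3 (0.0592) or Susp replicate 4 (0.0556). In Adh, CD69 was at 29.1 ± 4.64 CPM. GADD45B, a stress-inducible gene, was not called in the 12 libraries by edgeR (log2 fold change 1.06 in Adh against Sep, adjusted p = 0.126), but was with the GC and length correction (edgeR adjusted p = 0.0412).

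**Figure D4:**
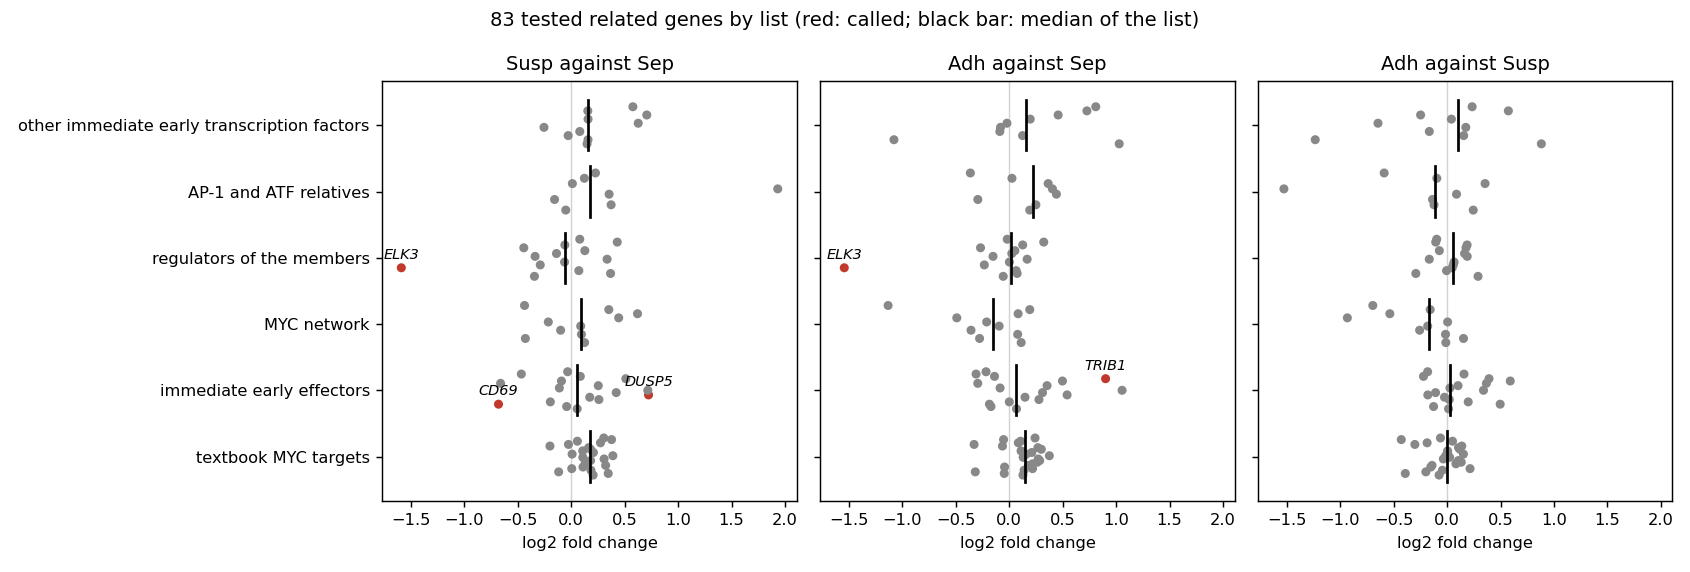
Log2 fold change of each of the 83 tested related genes in the 3 comparisons, by list, with called genes in red and the median of each list as a black bar. ELK3 is the lowest point of its list in both comparisons with Sep, at -1.59 and -1.54.

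Of the 11 other immediate early transcription factors, 10 were tested and edgeR called 0 in the 12 libraries, with an unadjusted p under 0.05 in 3 of 10 in each comparison. NR4A1, an orphan nuclear receptor induced by antigen receptor signals, was at 18.2 ± 4.30 CPM in Sep, 29.5 ± 5.45 in Susp and 25.0 ± 4.30 in Adh (SD, n = 4), with log2 fold changes against Sep of 0.71 (edgeR adjusted p = 0.0815) and 0.46 (edgeR adjusted p = 0.180). NR4A3, of the same family, had 0.58 (edgeR adjusted p = 0.240) and 0.81 (edgeR adjusted p = 0.0689). NR4A1 was called in Susp against Sep in 6 of 23 alternatives, among them DESeq2 (adjusted p = 0.0143) and the GC and length correction (edgeR adjusted p = 0.0101), and in Adh against Sep with that correction (0.61, edgeR adjusted p = 0.00540). NR4A3 was called in Adh against Sep in 7 of 23, among them DESeq2 (adjusted p = 0.0229) and the GC and length correction (edgeR adjusted p = 0.0213). The list's median was 0.16 in both comparisons with Sep. Among 14 AP-1 and ATF relatives, 8 were tested and edgeR and DESeq2 called 0, with an unadjusted p under 0.05 in 3, 3 and 2 of the 8. The lowest p-values were those of ATF4, the effector of the integrated stress response, with a log2 fold change of 0.37 in Susp (edgeR adjusted p = 0.0578), and of BATF, with 0.44 in Adh (edgeR adjusted p = 0.122).

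Of 11 genes of the MYC network, 10 were tested and edgeR called 0 in the 12 libraries, with an unadjusted p under 0.05 in 2, 1 and 3 of the 10. MXD3, a MAX partner that opposes MYC, had a log2 fold change of -0.93 in Adh against Susp (edgeR adjusted p = 0.114), and was called there by DESeq2 (-0.92, adjusted p = 0.0355), with the replicate block and with no low-count filter. MXD4, of the same family, was called in Susp against Sep with no low-count filter (0.63, edgeR adjusted p = 0.0478). MLXIP, a glucose-responsive factor of the extended network, had a log2 fold change of -0.36 in Adh against Sep (edgeR adjusted p = 0.05). Of 25 textbook MYC targets, 24 were tested and edgeR and DESeq2 called 0, with medians of 0.17 in Susp against Sep, 0.15 in Adh against Sep and -0.01 in Adh against Susp, beside medians within 0.01 of 0 for all genes. MYC itself, not called, had 0.18, 0.17 and -0.01, and a link between MYC and these medians was not tested. In Susp and Adh against Sep, the medians were 0.16 and 0.16 for the other immediate early factors and 0.17 and 0.22 for the AP-1 and ATF relatives. They were 0.06 and 0.07 for the effectors, 0.09 and -0.15 for the MYC network and -0.06 and 0.01 for the regulators. An unadjusted p under 0.05 with a higher level was reached by 11 of the 24 MYC targets in Susp and by 10 in Adh, against 16.7% and 20.2% of all genes in either direction. NPM1, a nucleolar chaperone, and LDHA, which makes lactate, had adjusted p-values of 0.0310 and 0.0363 in Adh against Sep (edgeR), with log2 fold changes of 0.30 and 0.28, under the 1.5-fold minimum.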

How the data were processed

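Poly-A RNA of 12 REC-1 and 4 MS-5 cultures had been sequenced as paired ends. The authors separated human from mouse reads with Xenome, aligned them with STAR 2.5.1b to GRCh38 or GRCm38, keeping uniquely mapping reads, and deposited raw counts per gene made with featureCounts (Subread 1.5.2). The kit does not mark strand. In each of the 12 REC-1 libraries, 69.8% to 84.2% of the counts from 4 to 19 were even, as were 90 of the 120 member counts, so the mates of a pair appear as separate counts and small counts hold fewer fragments than they show. Dividing by 2 was tried. The human table has 20 further columns of samples outside these groups, which were not used.

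Genes were filtered with filterByExpr, scaled by TMM and tested in 1 model of the 3 REC-1 groups with edgeR 4.0.16 (R 4.3.3), using the earlier form of the quasi-likelihood F-test, and p-values were adjusted by Benjamini-Hochberg over all 12861 genes. DESeq2 1.42.0 was an alternative. log2 CPM used a prior count of 2. Transcript length and GC content came from GENCODE 44 canonical transcripts, since the union of exons overstates the length of genes with alternative exons. The code was tested on simulated counts with known changes. The depth of 7758979 to 21467832 counts per REC-1 library limits the precision of EGR2, EGR3, FOS and FOSB.

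The members and lists were chosen with earlier results of these data known. All 10 members are named. Of the related lists, each gene called in at least 1 comparison is named, and lists with fewer than 2 such genes were filled to 2 by the smallest unadjusted p. GADD45B, MXD4 and MAFK were named after their values were seen, for a call in an alternative. For likeness, the 3 genes with the highest r are named. The alternatives were DESeq2, upper-quartile scaling, other low-count filters, the replicate number as a term, the 2 compared groups alone, the newer quasi-likelihood form, no fold minimum and each library left out. Corrections for GC content and length (loess span 0.3), with and without the replicate number, and halved counts were added after seeing the data. The p-values measure the spread between cultures of 1 line.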

Additional observations from a re-analysis of the deposited data

Results flagged for a closer look

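Among the 21 sets of 4 libraries that the 7 tested members form, 2 held a library far from the other 3, where chance alone gives about 1 in 20. EGR1 in Sep replicate 3 was at 13.4 CPM, below 17.2 to 17.5 CPM in the other Sep libraries. EGR3 in Adh replicate 1 was at 2.11 CPM, below 3.37 to 3.60 CPM in the other Adh libraries.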

How the results depend on the processing

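Of 23 alternatives, 0 called any member in Adh against Susp. In Susp against Sep 1 member (JUND) was called with no low-count filter and 0 elsewhere. In Adh against Sep 1 member (EGR3) was called with DESeq2, with the GC and length correction and with that correction plus the replicate block, and leaving out 1 library gave 0 to 1. With the replicate block alone 0 members were called in each comparison, though JUND in Susp against Sep had an edgeR adjusted p of 0.0439 at 0.57, under 1.5-fold. The replicate numbers did not meet the rule used for pairing, every correlation above 0.1. Same-numbered libraries correlated above 0.1 for 1, 3 and 1 of 4 numbers in Susp against Sep, Adh against Sep and Adh against Susp. Of the 4 numbers, 1, 3 and 2 correlated best with their own number. Replicate 1 did both in all comparisons (r = 0.32, 0.31 and 0.31). The column names of a replicate number also share a leading number, and the study speaks of 4 independent experiments. A shared experiment per number is thus not excluded, and the main fit leaves it out. In 4 of 4 same-numbered sets JUNB and JUND were higher in Susp than in Sep and lower in Adh than in Susp. This was counted for these 2 genes only, with no share of all genes to set beside it. The mean of the GC-rich genes was likewise lower in Adh than in Susp at every number. It was higher in Susp than in Sep except in replicate 4 (0.22 in Susp, 0.32 in Sep).

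Of the related genes, 5 were called in Susp against Sep with no filter and 1 to 4 with 1 library left out, against 3. In Adh against Sep 5 were called without a fold minimum, 5 with the GC and length correction and 6 with it and the replicate block, against 2. In Adh against Susp 1 was called with DESeq2, 2 with no filter and 1 with the replicate block (MXD3 in each, and MAFK with no filter), against 0. Over all genes, Susp against Sep gave 172 with DESeq2, 217 with no filter and 175 with the replicate block (main 94, and 64 to 135 with 1 library left out). Adh against Sep gave 527, 503 and, with the GC and length correction, 495 (main 309, range 143 to 519). Adh against Susp gave 282 with DESeq2, 341 with no filter and 281 with the replicate block (main 100, range 51 to 165).

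Signs turned only for uncalled values. With the GC and length correction, alone and then with the replicate block, the log2 fold change was 0.12 and 0.13 for JUNB and 0.064 and 0.050 for IER2 in Adh against Sep, and 0.065 and 0.082 for JUNB, 0.17 and 0.17 for JUND and 0.39 and 0.36 for IER2 in Adh against Susp. The replicate block alone gave 0.0042 for JUNB in Adh against Sep, and the 2 groups alone gave 0.0018 for MYC in Adh against Susp. Leaving out 1 library gave, in Susp against Sep, -0.27 to 0.024 for JUN and -0.16 to 0.051 for IER2. In Adh against Sep it gave -0.072 to 0.30 for JUN, -0.24 to 0.22 for JUNB, -0.11 to 0.32 for JUND and -0.12 to 0.021 for IER2, and in Adh against Susp -0.10 to 0.11 for IER2 and -0.060 to 0.061 for MYC. The cause of these changes was not tested.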
